A study of Mus musculus with 32 samples.

Results

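Igkv2-109, Igkv2-112 and Igkv2-116 are 3 of the 112 V segments of the immunoglobulin kappa (Igk) light chain locus that were counted in the VJ-seq experiment, and they were taken by name from both deposited tables. All 3 have rows in both tables. VJ-seq reads RNA of rearranged Igk genes, primed from the constant (Ck) exon, so that each read belongs to a V segment that has been joined to a J segment. The cells were pre-B cells from the bone marrow of young adult female F1 mice of the strain label C57BL6/Castaneous, in which reads can be assigned to the C57BL/6 (B6) or the Castaneous (Cast) allele. Clones 3, 4, 8, B52 and E9-3 each grew from a single cell in IL-7, and rearrangement was induced by taking IL-7 away for 48 h. Clone 4 was also followed at 12, 24, 36 and 48 h without IL-7. The sample labels list a cultured pre-B-cell pool with the 48 h libraries, whereas the methods describe cells selected from the bone marrow of a mouse and give no time without IL-7 for them, so the pool is set beside the clones and not among them. Every library comes from these hybrid mice, and each clone stands for 1 cell of origin. The tables hold V segments only, so markers of pre-B cells could not be checked in them.

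In a developing B cell, the RAG recombinase cuts at a recombination signal next to a V segment and at another next to a J segment, and the joined V and J then encode the variable part of the kappa chain. The signal on the V side consists of a heptamer, a spacer of 12 bases and a nonamer. V promoters of this locus often carry an octamer that is bound by Oct factors. Segments that point the same way as J and Ck rearrange by deleting the DNA between them, while segments of the opposite orientation rearrange by inversion. Members of a V family share much of their sequence but each encodes its own antigen-contact loops.

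Igkv2-109, Igkv2-112 and Igkv2-116 lie on the plus strand of chromosome 6, the strand of Ck, in the GENCODE M21 annotation of GRCm38, which is the mm10 build. Igkv2-109 spans chr6:68302427-68303158, Igkv2-112 spans chr6:68219981-68220706 and Igkv2-116 spans chr6:68151885-68152617. Igkv2-116 is the most distal, 67363 bases before Igkv2-112, which lies 81720 bases before Igkv2-109. The Ck exon starts 2423276 bases beyond Igkv2-109. Igkv2-109 and Igkv2-112 are annotated as V genes and Igkv2-116 as a V pseudogene. The annotated B6 exons of all 3 segments begin with ATG and hold 0 in-frame stop codons in 120 codons, and their intron begins with GT and ends with AG.

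The recombination signals are shown because Igkv2-109 and Igkv2-116 share theirs in full. Each line gives the last 60 bases of the V exon and then the 28 bases of the signal from the RefSeq GRCm38 genome, plus strand, with heptamer and nonamer in capitals.
Igkv2-109, chr6:68303099-68303186: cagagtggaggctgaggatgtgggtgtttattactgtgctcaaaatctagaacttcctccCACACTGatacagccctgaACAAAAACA
Igkv2-112, chr6:68220647-68220734: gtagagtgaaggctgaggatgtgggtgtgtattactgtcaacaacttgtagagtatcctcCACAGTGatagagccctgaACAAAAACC
Igkv2-116, chr6:68152558-68152645: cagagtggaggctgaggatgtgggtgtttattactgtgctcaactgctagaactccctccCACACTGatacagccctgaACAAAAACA

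The signal of Igkv2-112 has the heptamer CACAGTG and the nonamer ACAAAAACC. This combination, with a spacer of 12 bases, was found near the annotated end of 36 of the 111 segments found in the annotation (32.4%). The heptamer CACACTG of Igkv2-109 and Igkv2-116 was found there for only these 2 segments (1.80%). The 28 bases of their signal were 100% identical, and 3 bases of the Igkv2-112 signal differed from them. Each motif was searched anywhere in a stretch from just inside the annotated end to beyond it, on the strand of the segment. These are sequences of the B6 genome, and the Cast alleles were not read here.

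The stretch around the octamer is shown for the same reason, since Igkv2-109 and Igkv2-116 are also close there. Each line gives the octamer ATTTGCAT in capitals with 40 bases before and 24 after it, from the same genome and strand.
Igkv2-109, chr6:68302292-68302363: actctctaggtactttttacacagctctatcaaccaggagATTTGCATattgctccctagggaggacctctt
Igkv2-112, chr6:68219835-68219906: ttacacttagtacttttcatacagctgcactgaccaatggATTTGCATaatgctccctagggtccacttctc
Igkv2-116, chr6:68151738-68151809: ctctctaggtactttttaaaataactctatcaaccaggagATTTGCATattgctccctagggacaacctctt

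The octamer begins 107 bases before the start codon of Igkv2-109 and Igkv2-116 and 106 bases before that of Igkv2-112. ATTTGCAT or its reverse complement ATGCAAAT lies within the 300 bases before the start of 70 of the 111 segments (63.1%). Over these 300 bases Igkv2-109 and Igkv2-116 were 92.4% identical, against 60.0% for Igkv2-109 and Igkv2-112 and 58.7% for Igkv2-112 and Igkv2-116. Over the exons Igkv2-109 and Igkv2-116 were 95.9% identical, with 15 mismatches in 362 aligned bases. Igkv2-112 was 81.5% identical to Igkv2-109 and 80.1% to Igkv2-116, and its closest relative among the 110 other segments was Igkv2-137, at 83.1%. Reads could have been split between Igkv2-109 and Igkv2-116 by the alignment, and their separate counts carry that uncertainty.

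Each library is the only one of its clone or time, except that clone 4 was sequenced at 48 h in both tables. The libraries of the pool and clones held between 34291 reads (clone E9-3) and 320951 reads (pool) on V segments, and those of the time course between 1174 (24 h) and 10958 (48 h). The B6 allele took between 51.2% (clone 3) and 71.8% (clone 4) of the reads of the pool and clones. A count of 3 reads, used as the detection floor, is at most 0.00875% of a library in the pool and clones, and 0.173%, 0.256%, 0.0423% and 0.0274% of the time-course libraries in order of time. Ranges in brackets are 95% Wilson intervals, which cover counting error only because PCR copies were not told apart. Since RNA was measured, fewer cells with a given joining and less RNA per such cell cannot be told apart, and tests on reads compare libraries, not conditions.

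Igkv2-109 was the most used of the 3 segments in every library of the pool and clones. It made up 1.49% of the reads of the pool [1.44 to 1.53], 1.80% for clone 3 [1.74 to 1.87], 1.63% for clone 4 [1.54 to 1.73], 1.64% for clone 8 [1.57 to 1.71], 0.268% for clone B52 [0.232 to 0.309] and 1.46% for clone E9-3 [1.33 to 1.59]. Clone B52 stood below the other libraries, and the remaining ones lay close together. In clone B52 Igkv2-109 ranked 56 among the segments by reads, whereas its rank was between 17 and 25 in the others. The highest clone was 6.74-fold above the lowest, and the values over the 5 clones had an SD of 0.622 percentage points.

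Most of the reads of Igkv2-109 came from the Cast allele in each of these libraries. The percent of the Cast reads given by Igkv2-109 was 2.17 in the pool, 2.99 for clone 3, 3.09 for clone 4, 2.42 for clone 8, 0.575 for clone B52 and 2.70 for clone E9-3. The percent of the B6 reads was 0.979, 0.673, 1.06, 1.18, 0.108 and 0.380 in the same order. Clone B52 was lowest on both alleles. Among segments ranked on the Cast allele alone, Igkv2-109 was 8th in clones 3, 4 and E9-3, and on the B6 allele it ranked 41st, 35th and 57th there.

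Igkv2-112 had the widest ratio between clones. It gave 0.623% of the reads of the pool [0.596 to 0.650], 0.254% for clone 3 [0.231 to 0.280], 0.829% for clone 4 [0.762 to 0.902], 1.43% for clone 8 [1.37 to 1.50], 0.155% for clone B52 [0.128 to 0.187] and 0.108% for clone E9-3 [0.0783 to 0.149]. Clone 8 was 13.3-fold above clone E9-3, whose value rests on 37 reads, and the SD over the 5 clones was 0.569 percentage points. In clone 8 Igkv2-112 reached 1.05% of the B6 reads and 2.08% of the Cast reads, and in clone 3 it gave 0.250% and 0.258%. Clone 8 was the highest clone on both alleles.

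Igkv2-116, the annotated pseudogene, was read on both alleles in all of these libraries. It gave 0.182% of the reads of the pool [0.168 to 0.198], 0.572% for clone 3 [0.537 to 0.610], 0.564% for clone 4 [0.510 to 0.625], 0.648% for clone 8 [0.604 to 0.695], 0.133% for clone B52 [0.109 to 0.163] and 0.443% for clone E9-3 [0.378 to 0.519]. The pool and clone B52 were low, and the other 4 clones were close to each other. The pool had only 85 B6 reads of Igkv2-116, or 0.0461% of its B6 reads, against 500 Cast reads, or 0.366% of its Cast reads. Clones 3, 4, 8 and E9-3 lay within 0.255% to 0.424% of the B6 reads and 0.661% to 1.25% of the Cast reads.

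**Figure D1:**
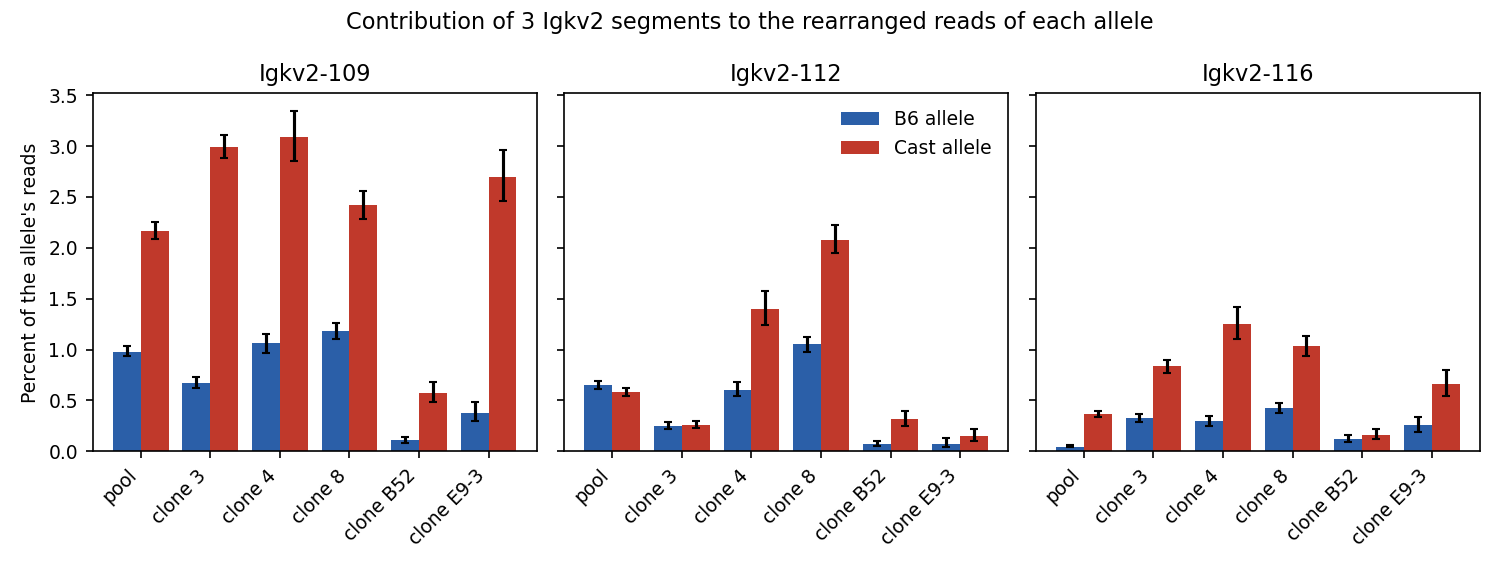
Percent of the reads of the B6 allele (blue) and of the Cast allele (red) given by each of the 3 segments, in the pool and the 5 clones (1 library each). Bars are the values and error bars 95% Wilson intervals. Igkv2-109 is higher on Cast than on B6 in every library, clone B52 is the lowest clone for it on both alleles, and Igkv2-112 peaks in clone 8.

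Percents of library were compared between all 10 pairs of clones with Fisher's exact test and Benjamini-Hochberg adjustment over all segments and pairs. Of all 1032 such comparisons 87.6% passed an adjusted p of 0.05, so that the 9 of 10 pairs that passed for each of Igkv2-109, Igkv2-112 and Igkv2-116 are near the background. For Igkv2-109 the pair that did not pass was clones 4 and 8, with 1.63% and 1.64%. For Igkv2-112 it was clones B52 and E9-3, with 0.155% and 0.108%, and for Igkv2-116 clones 3 and 4, with 0.572% and 0.564%. From high to low, the order for Igkv2-109 was clone 3, clones 8 and 4, which did not differ beyond counting error, clone E9-3 and clone B52. The order for Igkv2-112 was clones 8, 4 and 3 and then B52 and E9-3, and for Igkv2-116 clones 8, 3, 4, E9-3 and B52. With all counts divided by 33.0, the chi-square statistic for the percent of library averaged over segments between the 2 libraries of clone 4 at 48 h, 4 of 10 pairs passed for Igkv2-109, 6 of 9 for Igkv2-112 and 2 of 9 for Igkv2-116, with 40.6% of all comparisons passing.

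The only measure of spread between libraries of 1 clone is clone 4 at 48 h, read in both tables, and the labels do not say whether these were separate cultures. Igkv2-109 was 1.63% in the library of the table of clones and 1.52% in that of the time course, a ratio of 1.07. Igkv2-112 was 0.829% and 0.721%, a ratio of 1.15, and Igkv2-116 was 0.564% and 0.913%, a ratio of 1.62 in the opposite direction. The difference passed for Igkv2-116 (adjusted p = 0.000137, Fisher's exact test) and not for Igkv2-109 (adjusted p = 0.505) or Igkv2-112 (adjusted p = 0.332), where 62.1% of all segments passed. Pairs of clones that differed by a larger ratio than this repeat numbered 9 of 10 for Igkv2-109, 10 for Igkv2-112 and 4 for Igkv2-116. For Igkv2-116 those 4 pairs are the ones with clone B52.

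The B6 share, the percent of the reads of a segment that lie on the B6 allele, was below that of all other segments of the same library in 17 of the 18 values of the 3 segments in the pool and clones. The difference passed Fisher's exact test with Benjamini-Hochberg adjustment per library in 14 of them, in 6 of 6 libraries for Igkv2-109, 3 for Igkv2-112 and 5 for Igkv2-116. Among all tested segments, 34.7% passed in this direction in the pool, 40.2% for clone 3, 34.0% for clone 4, 35.6% for clone 8, 38.5% for clone B52 and 29.5% for clone E9-3. How many of all segments lay below the rest without regard to a test was not counted. Their median B6 share was above the share of the whole library in each of these libraries. The exception was Igkv2-112 in the pool, whose share of 60.0% was above the 57.4% of the other segments (adjusted p = 0.0192, Fisher's exact test), as was the case for 61.4% of the segments tested there.

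The B6 share of Igkv2-109 was 37.8% in the pool [36.5 to 39.2], 19.1% for clone 3 [17.7 to 20.6], 46.4% for clone 4 [43.5 to 49.5], 45.2% for clone 8 [43.0 to 47.4], 26.5% for clone B52 [20.7 to 33.3] and 14.0% for clone E9-3 [11.3 to 17.4]. All of these lie under 50%, and clones 4 and 8 are the nearest to it. With the alleles scaled to the same total, clone 8 (32.8%) and the pool (31.1%) were the nearest. Clone 4 was then at 25.4% and clone B52 at 15.8%. In the second library of clone 4 at 48 h, from the time course, the share was 64.1% [56.6 to 71.0], on the other side of 50%. In clone 8, where the gap was smallest, the share was lower by 17.9 points than the 63.2% of the other segments, and in clone E9-3, where it was widest, the share was lower by 40.2 points than their 54.3%.

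The B6 share of Igkv2-112 was 60.0% in the pool [57.8 to 62.1], 50.4% for clone 3 [45.6 to 55.1], 52.4% for clone 4 [48.2 to 56.6], 46.0% for clone 8 [43.7 to 48.4], 30.8% for clone B52 [22.9 to 40.1] and 37.8% for clone E9-3 [24.1 to 53.9]. The intervals of clones 3, 4 and E9-3 include 50%. Clone B52 was lowest, with 33 B6 and 74 Cast reads. With the alleles scaled to the same total, the share was 30.3% for clone 4, under 50%, 33.5% for clone 8 and 18.8% for clone B52.

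Igkv2-116 had its lowest B6 share in the pool, 14.5% [11.9 to 17.6]. It was 28.9% for clone 3 [26.1 to 31.9], 37.5% for clone 4 [32.7 to 42.6], 41.1% for clone 8 [37.7 to 44.6], 58.7% for clone B52 [48.5 to 68.2] and 30.9% for clone E9-3 [24.1 to 38.7]. Clone B52 was the only clone in which B6 reads outnumbered Cast reads, with 54 against 38, and its interval includes 50%. With the alleles scaled to the same total this share was 42.5%, under 50% like that of the other clones. In the same clone Igkv2-109 and Igkv2-112 were at 26.5% and 30.8%.

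**Figure D2:**
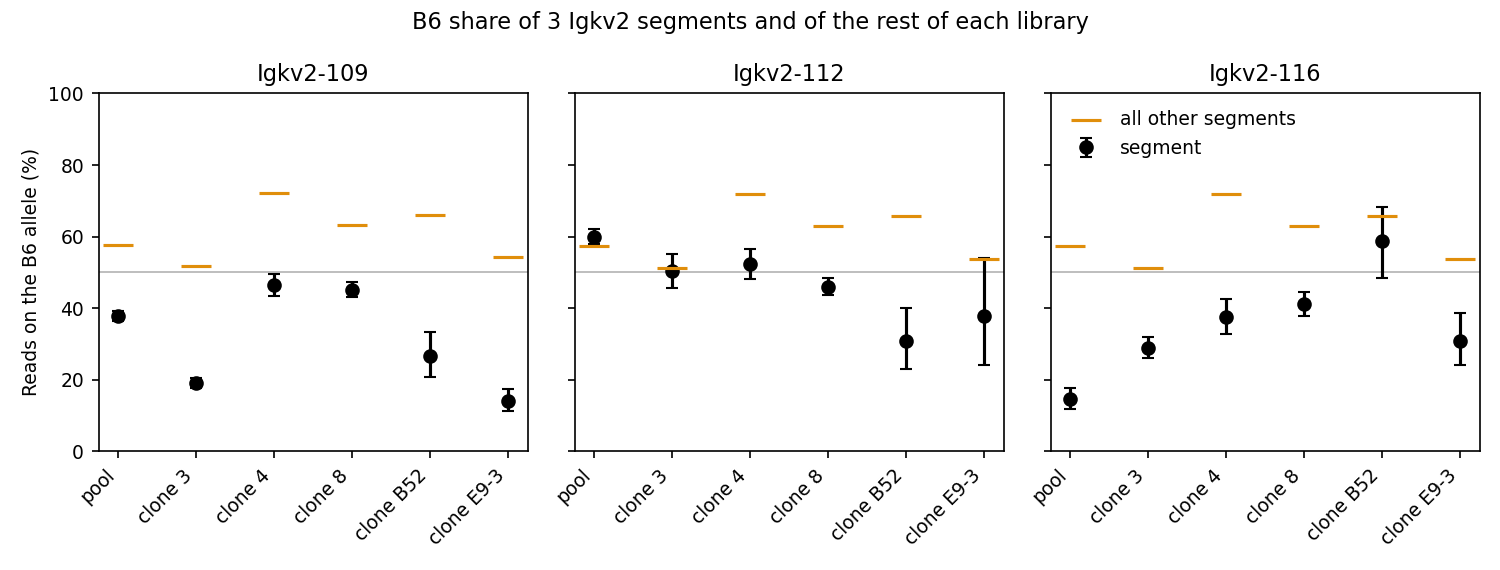
Percent of the reads of each segment on the B6 allele (black points, with 95% Wilson intervals) in the pool and the 5 clones, with the B6 share of all other segments of the same library (orange lines) and a grey line at 50%. Of the 18 points 17 lie below the orange line, and the point above it is Igkv2-112 in the pool.

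A segment was called skewed to an allele, after the criterion that the methods give for other allelic counts of the study, where the exact binomial test against 50% passed an adjusted p of 0.05 and the alleles differed at least 2-fold. By this rule 7 of the 18 values were called for Cast and 0 for B6, while 1 value, Igkv2-112 in the pool, lay above 50% with an unadjusted p under 0.05. When a call needed over 80% of the reads on 1 allele, the cutoff used in the study for rearranged segments, 3 of the 18 values were called, all for Cast, beside 11.9% of all tested values for Cast. By the 2-fold rule the calls for Cast among all tested segments were 16.8% in the pool, 28.4% for clone 3, 9.71% for clone 4, 15.8% for clone 8, 17.7% for clone B52 and 22.1% for clone E9-3, while those for B6 were 49.5%, 44.1%, 65.0%, 55.4%, 52.1% and 44.2% in the same order. Igkv2-109 was called in clones 3, B52 and E9-3, with Cast reads 4.23-fold, 2.78-fold and 6.13-fold over B6 reads. Igkv2-112 was called in clone B52, at 2.24-fold. Igkv2-116 was called in the pool, at 5.88-fold, and in clones 3 and E9-3, at 2.46-fold and 2.23-fold. None of the 3 segments was called in these libraries of clones 4 and 8, where the ratios of the higher to the lower allele were between 1.10 and 1.66. In the second library of clone 4 at 48 h, from the time course, Igkv2-116 was called for Cast at 2.57-fold (adjusted p = 1.99e-05, exact binomial test). Igkv2-109 had 1.78-fold more B6 than Cast reads there and Igkv2-112 1.55-fold, both without a call.

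Between clones, the B6 share of Igkv2-109 differed in 9 of 10 pairs, that of Igkv2-112 in 4 and that of Igkv2-116 in 7 (Fisher's exact test, adjusted p under 0.05 over all segments and pairs), where 58.4% of all 961 comparisons passed. The widest gap for Igkv2-109 was 32.4 points, between clones 4 and E9-3 (adjusted p = 1.40e-37, exact test). For Igkv2-112 it was 21.6 points, between clones 4 and B52 (adjusted p = 0.000118, exact test). For Igkv2-116 it was 29.8 points, between clones 3 and B52 (adjusted p = 8.19e-08, exact test), and here clone B52 was the higher of the pair. Clones 4 and 8 did not pass for Igkv2-109 (46.4% and 45.2%) or Igkv2-116 (37.5% and 41.1%).

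These counts depend on reading each sequenced read as independent. The 2 libraries of clone 4 at 48 h differed in B6 share by 17.6 points for Igkv2-109 (46.4% and 64.1%, adjusted p = 0.000117, Fisher's exact test), 8.33 points for Igkv2-112 (52.4% and 60.8%) and 9.53 points for Igkv2-116 (37.5% and 28.0%), and 34.5% of all segments passed between them. Pairs of clones with a larger gap than this repeat numbered 6 of 10 for Igkv2-109, 5 for Igkv2-112 and 6 for Igkv2-116. When all counts were divided by 17.7, which is the chi-square statistic for the B6 share averaged over segments between these 2 libraries, 4 of 10 pairs passed for Igkv2-109, 0 of 3 testable pairs for Igkv2-112 and 0 of 3 for Igkv2-116, with 25.2% of all comparisons passing. For Igkv2-112 and Igkv2-116, 0 of these pairs had an unadjusted p under 0.05 by Fisher's exact test either, and no pair with clone B52 or E9-3 kept enough reads to be tested.

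The pool differed from each of the 5 clones in B6 share for all 3 segments (Fisher's exact test, 62.9% of all comparisons passing), and the segments took different places in it. For Igkv2-112 the pool, at 60.0%, was above all 5 clones in the libraries listed with it, by between 7.58 and 29.2 points. The second library of clone 4 at 48 h, from the time course, was at 60.8%, not below the pool. For Igkv2-116 it was below all 5, by between 14.4 and 44.2 points, and Igkv2-109 lay inside the range of the clones. In percent of library the pool differed from 4 of 5 clones for Igkv2-109 and from 5 of 5 for the other two, where 90.7% of all comparisons passed. Igkv2-116 in the pool was 0.281 to 0.411 times its level in clones 3, 4, 8 and E9-3, and 1.37 times its level in clone B52. Whether culture or cell origin accounts for the place of the pool cannot be told apart here.

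Igkv2-109 and Igkv2-116 have the same recombination signal on B6 and exons of equal length, 362 bases, so that their reads can be set side by side. Igkv2-109 had 8.15 reads per read of Igkv2-116 in the pool [7.48 to 8.88], 3.15 for clone 3 [2.93 to 3.39], 2.89 for clone 4 [2.57 to 3.26], 2.53 for clone 8 [2.32 to 2.75], 2.01 for clone B52 [1.57 to 2.58] and 3.28 for clone E9-3 [2.74 to 3.94]. The pool stood apart from the clones, which lay between 2.01 and 3.28. The alleles did not share 1 ratio. On B6 it was 21.2 in the pool [17.1 to 26.4] and 0.907 for clone B52 [0.618 to 1.33], while on Cast it was 5.93 [5.39 to 6.51] and 3.58 [2.50 to 5.12]. In clones 3, B52 and E9-3 the ratio was lower on B6 than on Cast, and in the pool and clone 4 it was higher on B6, with intervals of the alleles that do not overlap. In clone 8 the B6 ratio was 2.78 and the Cast ratio 2.35, with overlapping intervals. In the second library of clone 4 the ratio was 1.67 [1.30 to 2.14], below the 2.89 of the first, and the Cast ratio was 0.833 [0.593 to 1.17] against 2.48.

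**Figure D3:**
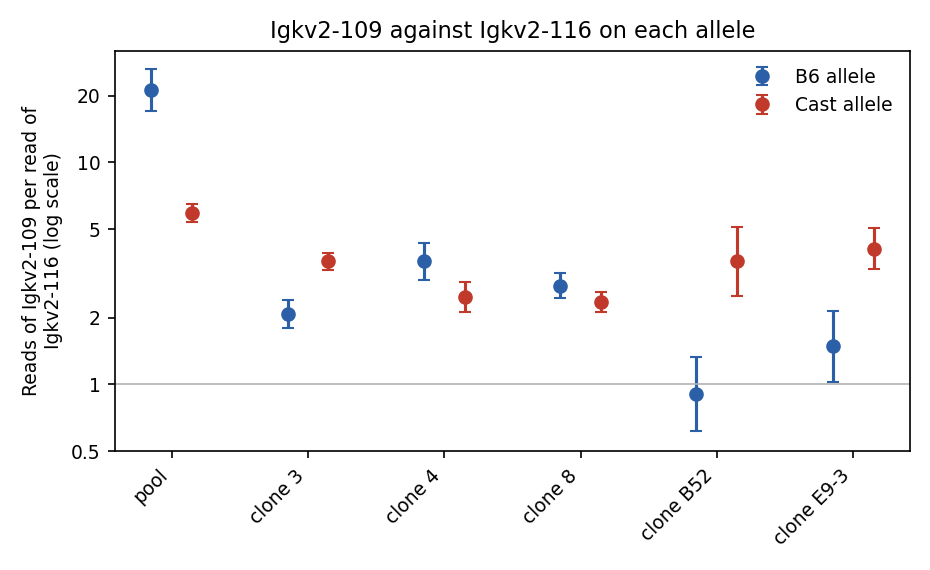
Reads of Igkv2-109 per read of Igkv2-116 on the B6 (blue) and Cast (red) alleles, on a log axis, with 95% intervals from the Wilson interval of the share of Igkv2-109 in the reads of both. The grey line marks equal reads. The B6 ratio ranges from 0.907 in clone B52 to 21.2 in the pool, and the Cast ratio from 2.35 to 5.93.

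In the time course of clone 4, Igkv2-109 was above the detection floor from 12 h on, Igkv2-116 from 24 h and Igkv2-112 from 36 h. Igkv2-109 had 16 B6 and 0 Cast reads at 12 h, 5 and 11 at 24 h, 58 and 37 at 36 h, and 107 and 60 at 48 h. Its percent of library was 0.921, 1.36, 1.34 and 1.52 in that order, and none of the 4 comparisons between times passed (Fisher's exact test, adjusted p between 0.117 and 0.944, 0 of 4 with an unadjusted p under 0.05). As a percent of the Cast reads alone, it differed from 12 to 24 h (adjusted p = 0.00321, exact test, 33.3% of tested segments passing) and from 12 to 48 h (adjusted p = 0.0259, exact test, 29.8% passing). The Cast reads absent at 12 h allow up to 1.09% of the Cast reads, since that library had 274 of them. The B6 share of Igkv2-109 fell from 100% at 12 h [80.6 to 100] to 31.2% at 24 h [14.2 to 55.6] and was 64.1% at 48 h. It differed between 12 and 24 h (adjusted p = 0.00145, Fisher's exact test, 21.1% of tested segments passing) and between 12 and 48 h (adjusted p = 0.0219, exact test, 33.3% passing). The values at 12 and 24 h rest on 16 reads each. The later steps did not pass, from 24 to 36 h (adjusted p = 0.182, exact test, 2.94% passing) or from 36 to 48 h (adjusted p = 1.00, exact test, 3.95% passing).

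Igkv2-112 had 1 B6 and 1 Cast read at 12 h and no read at 24 h, which allows up to 0.256% of that library. It had 26 and 18 reads at 36 h, or 0.620%, and 48 and 31 at 48 h, or 0.721%. The percent of library differed between 24 and 36 h (adjusted p = 0.00723, Fisher's exact test, 23.8% of tested segments passing) and between 12 and 48 h (adjusted p = 0.00410, exact test, 59.5% passing). From 36 to 48 h the difference did not pass (adjusted p = 0.589, exact test, 23.9% passing).

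Igkv2-116 had 0 B6 and 3 Cast reads at 12 h, 8 and 4 at 24 h, 21 and 57 at 36 h, and 28 and 72 at 48 h. Its percent of library was 0.173, 1.02, 1.10 and 0.913. The rise from 12 h passed at 24 h (adjusted p = 0.00931, Fisher's exact test, 55.3% of tested segments passing) and at 48 h (adjusted p = 0.00191, exact test). At 36 and 48 h its B6 share was 26.9% [18.3 to 37.7] and 28.0% [20.1 to 37.5], and it was called for Cast at both times. Igkv2-109 was called for B6 at 12 h on its 16 reads, and it was not tested with a minimum of 20 reads. Over all tested segments the calls for Cast were 28.6%, 11.8%, 14.1% and 15.5% in order of time, and those for B6 66.7%, 55.9%, 66.7% and 63.1%.

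A large part of the early libraries was a single other segment. In order of time Igkv19-93 gave 59.0%, 31.9%, 14.9% and 8.94% of the reads, and the percents of the other segments are lowered with it. With Igkv19-93 taken out of the totals, Igkv2-116 was 0.421% at 12 h, 1.50% at 24 h and 1.00% at 48 h, and neither comparison from 12 h passed (adjusted p = 0.109 and 0.321, exact test). Igkv2-112 from 12 to 48 h no longer passed either (0.281% and 0.792%, adjusted p = 0.337, exact test), while the step from 24 to 36 h did (adjusted p = 0.0296, exact test). Igkv2-109 was then 2.24%, 2.00%, 1.57% and 1.67% in order of time, so that its value at 12 h was above that at 48 h and not below it. None of its comparisons between times passed (adjusted p between 0.413 and 0.940, exact test).

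**Figure D4:**
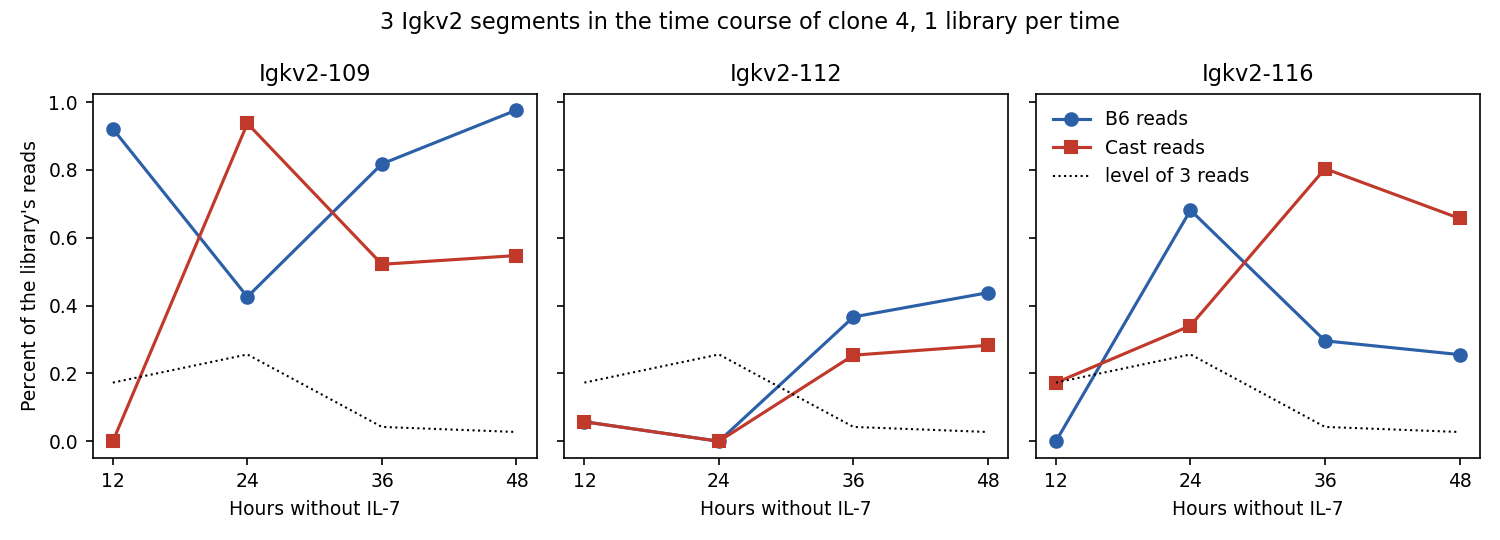
Percent of all reads of the library that each segment gave on the B6 (blue circles) and Cast (red squares) alleles in the time course of clone 4, against hours without IL-7, with 1 library per time. The dotted line is the level of 3 reads, which falls from 0.256% at 24 h to 0.0274% at 48 h. Igkv2-112 is under this line until 36 h, and Igkv2-116 is higher on Cast than on B6 at 36 and 48 h.

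Across the tested values of the time course, the B6 share of the 3 segments was below that of the other segments in 8 of 9, and the difference passed in 7 of them (Fisher's exact test, with 28.6%, 23.5%, 32.1% and 32.1% of tested segments passing in this direction in order of time). The number of all segments below without regard to the test was not counted here either. Igkv2-116 at 24 h was below without passing, at 66.7% against 79.6% (adjusted p = 0.416, exact test), and Igkv2-109 at 12 h was above, at 100% against 84.1% (adjusted p = 0.161, exact test).

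The stretch of the locus from Igkv11-106 to Igkv9-120 holds 6 other counted V segments beside these 3: Igkv11-106, Igkv1-110, Igkv14-111, Igkv1-115, Igkv1-117 and Igkv9-120. The median B6 share of the 6 was 35.3% in the pool, 22.2% for clone 3, 46.4% for clone 4, 55.8% for clone 8, 26.0% for clone B52 and 29.4% for clone E9-3, beside medians of all tested segments of 65.5%, 57.3%, 80.3%, 78.0%, 69.2% and 63.7%. Igkv11-106 had no B6 read in any of these libraries, whereas Igkv1-117 was called for B6 in each. These 6 together, without the Igkv2 segments, made up 2.98% of clone B52 and between 6.06% and 13.8% of the other libraries.

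**Figure D5:**
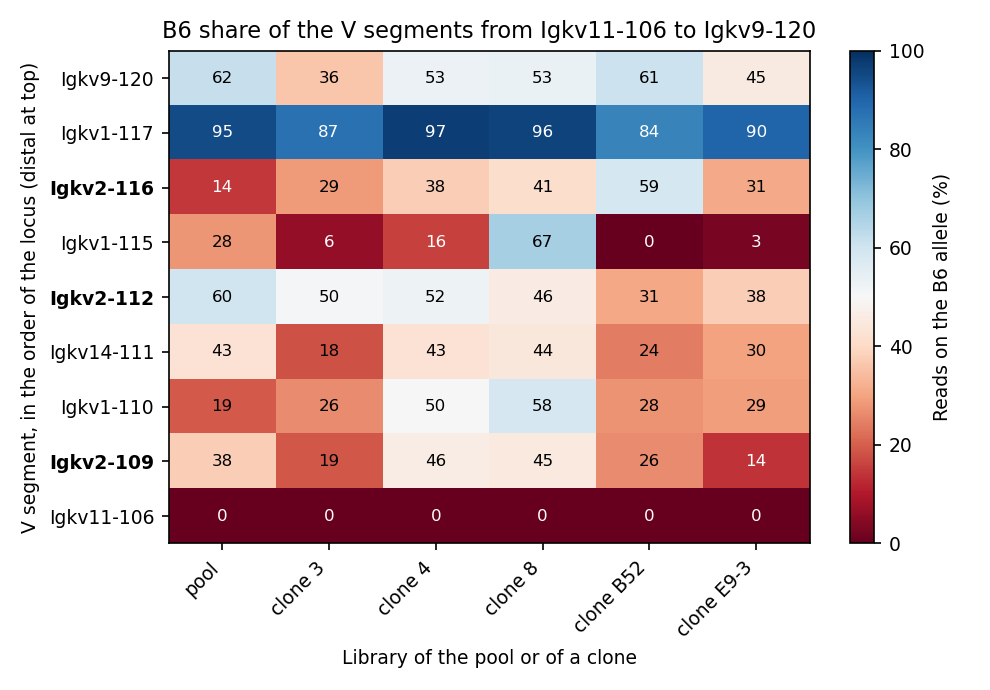
Percent of reads on the B6 allele for each V segment from Igkv11-106 to Igkv9-120 (rows, in the order of the locus, the 3 Igkv2 segments in bold) in the pool and the 5 clones (columns). Red is Cast and blue is B6. Igkv11-106 is at 0 in every library and Igkv1-117 is blue throughout, and the Igkv2 segments range from 14.0% to 60.0%.

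Igkv14-111, which lies between Igkv2-109 and Igkv2-112, was the segment whose B6 share was most like that of Igkv2-109 over the 6 libraries, with a mean absolute difference of 4.75 points among 84 segments with at least 20 reads in each. The next were Igkv1-110 at 9.77 points and Igkv4-90 at 11.7. For Igkv2-112 they were Igkv1-88 at 7.17 points, Igkv4-80 at 9.69 and Igkv9-120 at 10.2, and for Igkv2-116 Igkv18-36 at 8.42, Igkv12-89 at 10.7 and Igkv1-110 at 11.7. Igkv2-116 was 9th nearest to Igkv2-109, at 15.9 points, and Igkv2-112 was 7th, at 14.7.

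By Pearson's r of log2 percent of library over the same 6 libraries, given as a description of points that share depth and culture, Igkv2-109 was most like Igkv4-53 (0.939), Igkv2-112 most like Igkv4-63 (0.971) and Igkv2-116 most like Igkv9-129 (0.930). Among the 3 segments r was 0.770 for Igkv2-109 and Igkv2-116, 0.455 for Igkv2-109 and Igkv2-112 and 0.363 for Igkv2-112 and Igkv2-116.

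The tables hold 2 further Igkv2 segments. Igkv2-95-2 had 0 reads in all of these libraries. Igkv2-137, which lies outside this stretch, made up between 3.31% of clone E9-3 and 7.24% of clone 3, more than Igkv2-109 in each library, and its Cast reads outnumbered its B6 reads in all 6, with 72 B6 and 5640 Cast reads in clone 8 at the far end. Over the 4 Igkv2 segments with reads the median B6 share was between 22.5% (clone E9-3) and 43.2% (clone 8), and 0 of them were called for B6 in any of these libraries.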

How the data were processed

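Igk-VJ-seq libraries were made by the authors by reverse transcription of poly-A RNA from the Ck region and ligation-mediated PCR. Per the labels and the methods, trimmed reads were mapped by the authors with bowtie2 on a B6/Cast hybrid of mm10 (variants of Sanger Mouse Genome Project release 1505) and assigned to V segments by HTseq-count. The deposited values are raw counts per V segment and allele. Program versions are not given in the sources used here. From these counts, percents of library and allele, B6 shares and Wilson intervals were obtained in Python 3.11.15 (SciPy 1.17.1, NumPy 2.4.6, pandas 2.3.3). Sequences were aligned with Biopython 1.88 and figures drawn with matplotlib 3.10.9. Segments with at least 10 reads were tested with exact binomial or Fisher's exact tests and Benjamini-Hochberg adjustment at 0.05. The tests were tried on simulated counts in which reads were independent, so the spread between libraries of 1 clone was not covered. A count model was not fitted: clone 4 at 48 h was the only condition with a second library. The named segments are the 3 members, the other Igkv2 segments, the segments from Igkv11-106 to Igkv9-120 and the 3 nearest by B6 share or by level; Igkv19-93 was named after its values were seen. The members and lists were chosen with earlier results of these data known. The comparisons of the pool with the clones, of the B6 share between times, and of Igkv2-109 with Igkv2-116, were added after seeing the data. The other experiments of the series were not analysed here.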

Additional observations from a re-analysis of the deposited data

Results flagged for a closer look

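The B6 share differed between clones for all 3 segments by Fisher's exact test on reads with Benjamini-Hochberg adjustment over all segments and pairs. Igkv2-109 differed in 9 of 10 pairs, with shares between 14.0% (clone E9-3) and 46.4% (clone 4). Igkv2-112 differed in 4 of 10 pairs, with shares between 30.8% (clone B52) and 52.4% (clone 4). Igkv2-116 differed in 7 of 10 pairs, with shares between 28.9% (clone 3) and 58.7% (clone B52). Clone B52 was thus the highest clone for Igkv2-116 and the lowest for Igkv2-112. Over all segments 58.4% of comparisons passed, and with counts divided by 17.7 the pairs numbered 4 of 10, 0 of 3 and 0 of 3, with 25.2% passing over all segments; 0 of the pairs of Igkv2-112 and Igkv2-116 then had an unadjusted p under 0.05 by Fisher's exact test, and their pairs with clones B52 and E9-3 had too few reads to be tested. There is 1 library per clone, except that clone 4 at 48 h has 2. These 2 differed in B6 share by 17.6 points for Igkv2-109 (46.4% and 64.1%), 8.33 points for Igkv2-112 and 9.53 points for Igkv2-116. The part of library preparation in the differences between clones was not tested.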

How the results depend on the processing

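Calls of a B6 share below the rest of the library, 14 of 18 in the main analysis (35.5% of all tested values), were 14 of 18 with only segments read on both alleles (39.6%) and 11 of the 14 that could be tested with counts divided by 17.7 (26.2%), 2 alternatives chosen after seeing the data. Of the 14 calls, 2 were in clone B52 and 2 in the pool. Calls of skew to either allele in the pool and clones, 7 of 18 in the main analysis (70.2% of all tested values), were 15 by Fisher's exact test against the rest of the library (90.1%), 14 with no minimum fold (91.8%) and 3 when over 80% of reads had to lie on 1 allele (52.7%). In the time course, 3 of 9 in the main analysis (79.3%), they were 7 (66.8%), 5 (84.3%) and 1 (65.0%) in the same order. Minimums of 20 and 50 reads left the 7 calls in the pool and clones at 7 and took the 3 of the time course to 2, since Igkv2-109 at 12 h was then not tested. With the alleles scaled to the same total, the B6 share in the pool became 31.1% for Igkv2-109, 52.7% for Igkv2-112 and 11.2% for Igkv2-116; in clone 4 the same 3 shares became 25.4%, 30.3% and 19.1%, in clone 8 32.8%, 33.5% and 29.2%, and in clone B52 15.8%, 18.8% and 42.5%, the last from 58.7%. With counts divided by the excess, the pairs of clones that differed in B6 share were 4 of 10 for Igkv2-109 and 0 of the 3 that could be tested for each of Igkv2-112 and Igkv2-116, whose pairs with clones B52 and E9-3 had too few reads. In percent of library, where the divisor was 33.0, they were 4 of 10 for Igkv2-109, 6 of 9 for Igkv2-112 and 2 of 9 for Igkv2-116. Of the 4 differences between times, 1 passed without Igkv19-93. With the reads of 1 allele, Igkv2-116 from 12 to 24 h had too few reads to be tested; of the remaining 3, 2 passed with B6 reads and 0 with Cast reads (adjusted p between 0.260 and 0.536, exact test), where 2 others did, Igkv2-109 from 12 h to 24 h (adjusted p = 0.00321, exact test) and to 48 h (adjusted p = 0.0259, exact test). With counts divided no member had reads enough to be tested. The same minimums left the counts of pairs that differed in B6 share at 9, 4 and 7, and relative odds gave 8, 5 and 7 pairs, with 51.2% of all comparisons passing. The cause of the other changes was not tested. No paired analysis was possible because the titles of the VJ-seq libraries name no pairs, and only clone 4 at 48 h has a second library. Depth limits the time course, where at 12 and 24 h Igkv2-112 and Igkv2-116 had at most 12 reads.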

Other observations

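The 3 segments together gave 2.29% of the reads of the pool, 2.63% of clone 3, 3.02% of clone 4, 3.72% of clone 8, 0.555% of clone B52 and 2.01% of clone E9-3. In the time course of clone 4 the summed percents were 1.21 [0.792 to 1.84], 2.39 [1.66 to 3.43], 3.06 [2.68 to 3.49] and 3.16 [2.85 to 3.50] in order of time. The early sums are lowered by Igkv19-93, which gave 59.0% of the reads at 12 h and 8.94% at 48 h. With Igkv19-93 taken out of the totals, Igkv2-109 was 2.24% at 12 h and 1.67% at 48 h. Igkv2-112 was then 0.281% and 0.792%, and Igkv2-116 0.421% and 1.00%. None of these 3 differences passed (adjusted p between 0.321 and 0.413, Fisher's exact test), and the sum was not tested.

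Among the 13 segments of the tables that GENCODE M21 annotates as V pseudogenes, Igkv2-116 ranked between 3rd (clones 3 and E9-3) and 6th (clone B52) by reads. At least 3 reads were found for 9 or 10 of the 13 in each library of the pool and clones.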
